A study of Mus musculus with 4 samples.

Results

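The Hox genes are a family of homeodomain transcription factors that lie in 4 genomic clusters, A to D, and are numbered by paralogue group from 1 to 13. All gene symbols made of Hox, a cluster letter and a number were taken as members, which gave 39 of the 32285 gene symbols in the files. The A cluster holds 11 of them (chromosome 6, 52155590 to 52260880, mm10), the B cluster 10 (chromosome 11, 96194316 to 96368256), the C cluster 9 (chromosome 15, 102921103 to 103036852) and the D cluster 9 (chromosome 2, 74668310 to 74765142). Antisense and predicted genes of the clusters were not counted as members.

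During development Hox genes are switched on in the order in which they lie in their cluster, so that low-numbered genes are expressed from the hindbrain downwards and high-numbered genes only further towards the tail. The combination that a spinal neuron keeps is known as its segmental identity: in motor neurons, members of group 5 are needed for the phrenic pool that drives the diaphragm, Hoxc6 and Hoxc8 for forelimb pools, Hoxc9 for thoracic columns, and group 10 for lumbar hindlimb pools. Hox proteins bind DNA together with Pbx and Meis cofactors, and their on and off states are held by Trithorax and Polycomb complexes.

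The study sorted nuclei of the V2a lineage, excitatory interneurons of the spinal cord, from adult female mice and sequenced their RNA by droplet (10x 3' v3). All mice, controls included, were Chx10Cre/+; ROSA26CAG-LSL-Sun1-sfGFP-Myc/+, so Cre of the V2a lineage switches on a fluorescent Sun1 fusion, driven by the CAG promoter, in the nuclear envelope of any cell with a history of that Cre. The uninjured group (2 libraries) came from segments C1 to C8, and the injured group (2 libraries), taken 5 days after hemisection of the cord at C2, came from C3 to C8. Segment range and injury therefore cannot be told apart in any comparison below. Nothing in the labels says whether libraries came from separate or pooled animals, so every p-value here reflects how far these 4 libraries vary, and that variation may be technical. Values of 4 libraries are given in the order uninjured 1, uninjured 2, injured 1 and injured 2.

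Clustering without any Hox gene left 475, 716, 420 and 320 glutamatergic neuron-like nuclei, in which the Hox genes were compared. Their median depth was 11327, 9916, 6471 and 7527.5 counts per nucleus. In these nuclei 6 or 7 of the 8 V2a-lineage markers had a count in each library (summed level 230 to 308 CPM, which are counts per library set to 1 shared total), and Vsx1 was at 0 in all 4. Of 10 inhibitory markers 4 to 8 had a count (29.4 to 41.6 CPM summed), with the transporter Slc32a1 at 0 in all 4, and of 10 oligodendrocyte markers 0 to 3 did (0 to 12.8 CPM), with Mbp at 0. Of 10 microglia or macrophage markers 2 to 4 had a count and summed to 77.4 to 233 CPM, while Csf1r, C1qa, C1qb, C1qc and Tmem119 were at 0 in all 4. Their part in the results was not tested. Slc17a6, the vesicular glutamate transporter, had no count left in injured 1 but a stored entry in 73.7% to 91.9% of the nuclei of each glutamatergic cluster. Uninjured 2 stood apart, since 31.7% of its nuclei were oligodendrocyte-like against 1.03% to 2.32% elsewhere. At most 1 nucleus barcode was shared by any pair of libraries.

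Detection is described here mainly by stored entries. The deposited matrices list many gene and nucleus pairs with a value of 0, which were read as detections that the subtraction of free RNA had emptied. For Hox genes this matters more than for most: 24.6%, 28.6%, 29.6% and 32.5% of Hox entries kept a count, against 46.9%, 41.0%, 45.9% and 44.5% of all entries. A stored entry can include RNA that was free in the suspension, so the same shares were taken in oligodendrocyte-like nuclei of uninjured 2, which were shallower (median 1656 stored entries against 5524). There Hoxc4 was stored in 0.152% of nuclei, Hoxc6 in 0.304% and Hoxb6 in 0.609%, but Hoxd3 in 8.83%, Hoxd4 in 8.52% and Hoxa3 in 6.70%. In each of the 17 commonly stored members the share was higher in glutamatergic neuron-like nuclei of that library.

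Upstream sequences are shown for 4 members. Hoxc8, Hoxa7 and Hoxc6, on which much of the results below rests, are not among them. Hoxb4 was stored less often in both injured libraries. Hoxd8 was higher in them only at matched depth and did not pass the test. Hoxd4 is a widely stored and Hoxb8 a more caudal member. The sequences are the 250 bases before the start site on the plus strand (RefSeq, GRCm38.p6). They lie at chr11:96318017-96318266 for Hoxb4, chr2:74721728-74721977 for Hoxd4, chr2:74704365-74704614 for Hoxd8 and chr11:96281655-96281904 for Hoxb8. None overlapped an annotated exon, and the Hoxd4 window lies inside an intron of longer Hoxd3 and Hoxd4 transcripts. Capitals mark matches, on either strand, to AGGTCA (the half-site of retinoic acid receptors and other nuclear receptors), TTTATNG (a Cdx-type site) or TGATNNAT (a composite Pbx and Hox site).
Hoxb4: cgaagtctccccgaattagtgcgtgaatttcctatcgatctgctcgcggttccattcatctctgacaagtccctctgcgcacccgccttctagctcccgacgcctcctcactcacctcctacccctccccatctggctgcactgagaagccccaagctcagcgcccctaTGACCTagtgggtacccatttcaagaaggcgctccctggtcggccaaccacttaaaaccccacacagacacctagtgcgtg
Hoxd4: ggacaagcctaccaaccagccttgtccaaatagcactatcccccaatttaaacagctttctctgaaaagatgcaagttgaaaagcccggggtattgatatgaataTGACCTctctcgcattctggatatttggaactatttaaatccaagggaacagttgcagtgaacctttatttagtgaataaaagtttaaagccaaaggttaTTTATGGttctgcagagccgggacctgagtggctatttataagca
Hoxd8: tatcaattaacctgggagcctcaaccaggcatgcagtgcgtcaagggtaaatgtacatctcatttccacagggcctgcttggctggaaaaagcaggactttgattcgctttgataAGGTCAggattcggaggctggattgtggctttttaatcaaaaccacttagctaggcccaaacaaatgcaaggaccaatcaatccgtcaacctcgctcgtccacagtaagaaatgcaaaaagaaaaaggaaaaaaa
Hoxb8: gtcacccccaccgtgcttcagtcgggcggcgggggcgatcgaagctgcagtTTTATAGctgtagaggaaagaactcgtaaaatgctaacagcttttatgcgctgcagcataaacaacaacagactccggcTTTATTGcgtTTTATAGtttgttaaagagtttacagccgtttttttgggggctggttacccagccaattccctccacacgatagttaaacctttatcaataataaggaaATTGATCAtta

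The sequence table held 24 promoters of 22 members. AGGTCA was present in 6 of the 24 upstream windows (Hoxb4, Hoxc4, Hoxd3, Hoxd4, Hoxd8 and Hoxd10) and in 14.02% of all 32851 windows of that length. TTTATNG was present in 2 of 24 (Hoxb8 and Hoxd4) against 9.81% of all, and TGATNNAT in 4 of 24 (Hoxa2, Hoxb1, Hoxb8 and Hoxd11) against 7.68%. The windows held a median of 12.5 CG dinucleotides against 6 over all promoters. Such matches are descriptions of the letters and not evidence of binding.

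Adult cervical V2a nuclei held entries of a broad range of Hox genes. At least 1 Hox gene was stored in 97.5%, 98.6%, 95% and 98.1% of glutamatergic neuron-like nuclei, and a nucleus stored a mean of 5.69, 5.72, 4.39 and 5.55 different Hox genes. Of the 39 members, 17 were stored in at least 10% of these nuclei in some library, 13 were stored less often, and 9 had no stored entry in them. In all, 25, 30, 26 and 24 members were stored at least once per library. Shares of nuclei are detections, not levels scaled to gene length, so the order of genes below is an order of detection only.

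Groups 3 and 4, which pattern the hindbrain and the neck, were the most widely stored. Hoxd3, needed for the first neck vertebrae, was stored in 60.4%, 67.0%, 58.8% and 63.1% of nuclei. Hoxc4 was stored in 59.6%, 60.2%, 44.3% and 58.8%, and Hoxd4 in 49.7%, 52.0%, 34.0% and 48.1%. Both were lowest in injured 1, the library with the fewest counts per nucleus. Hoxa3, known for its part in thymus and parathyroid formation, was stored in 49.5%, 50%, 36.0% and 42.5%, and Hoxb3 in 44.8%, 46.5%, 35.2% and 35.6%. Hoxb4, of group 4, was stored in 32.6%, 27.2%, 16.9% and 15.9%, with no overlap between uninjured and injured libraries. Hoxa4, the other member of group 4, was stored in only 3.35% to 4.63%. Exons of Hoxd3 and Hoxd4 overlap each other, and exons of Hoxa3, Hoxa4, Hoxb3, Hoxd3 and Hoxd4 overlap antisense genes. Reads of these genes may thus be shared, and the use of strand in counting is not given in the sources used here.

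Group 5 was stored in fewer nuclei. Hoxb5 was stored in 33.7%, 29.7%, 18.3% and 25%, Hoxa5 in 23.4%, 20.8%, 15.2% and 22.8%, and Hoxc5 in 20.8%, 19.97%, 14.8% and 22.8%. All 3 were lowest in injured 1. Exons of Hoxb5 overlap the antisense gene Hoxb5os, and those of Hoxc5 overlap Hoxc10.

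Groups 6 to 8, whose members include the forelimb determinants, made up most of the remaining entries. Hoxb6 was stored in 44.6%, 40.2%, 39.05% and 40.9% of nuclei. Hoxc6 was stored in 41.3%, 33.1%, 30.7% and 38.8%, and Hoxa7 in 24.8%, 27.5%, 27.9% and 35.0%. Hoxa7 was highest in injured 2 although both injured libraries were shallower than the uninjured ones. Its exons overlap the antisense gene Hoxaas3, so its reads may also be shared. Hoxc8, needed for the forelimb motor pools of the lower cervical cord, was stored in 12.6%, 14.8%, 15.7% and 23.8%, and was thus higher in both injured libraries. Hoxb8 was stored in 18.5%, 17.6%, 10.7% and 19.7%, Hoxd8 in 8.42%, 7.26%, 6.19% and 12.2%, and Hoxb7 in 7.58%, 12.3%, 7.38% and 9.69%. Hoxa6 reached only 3.81% to 6.28%, whereas its paralogues Hoxb6 and Hoxc6 were stored in over 30% of nuclei in every library.

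Detection ended sharply after group 9. Hoxc9, which sets thoracic identity in motor neurons, was stored in 5.05%, 4.47%, 2.62% and 6.25%, Hoxa9 in 2.74%, 4.75%, 2.14% and 2.81%, Hoxb9 in 1.47%, 3.07%, 0.476% and 2.50%, and Hoxd9 in 0.211%, 0.559%, 0.714% and 0.938%, which is 1, 4, 3 and 3 nuclei. The groups overlapped for Hoxc9, Hoxa9 and Hoxb9. The 12 members of groups 10 to 13 had 4 stored entries in all, 1 each of Hoxc10, Hoxc13, Hoxd10 and Hoxd11, and all 4 were in uninjured 2. For a member with none, these numbers of nuclei allow a share of up to 0.632%, 0.419%, 0.714% and 0.938%. At the other end, Hoxa2 was stored in 2.19% to 3.49%, Hoxb1 in at most 0.559% and Hoxd1 in none. Hoxb2, a hindbrain gene of group 2, was stored in 15.2%, 17.2%, 9.29% and 15.3%, and its exons overlap the antisense gene Hoxb3os.

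**Figure D1:**
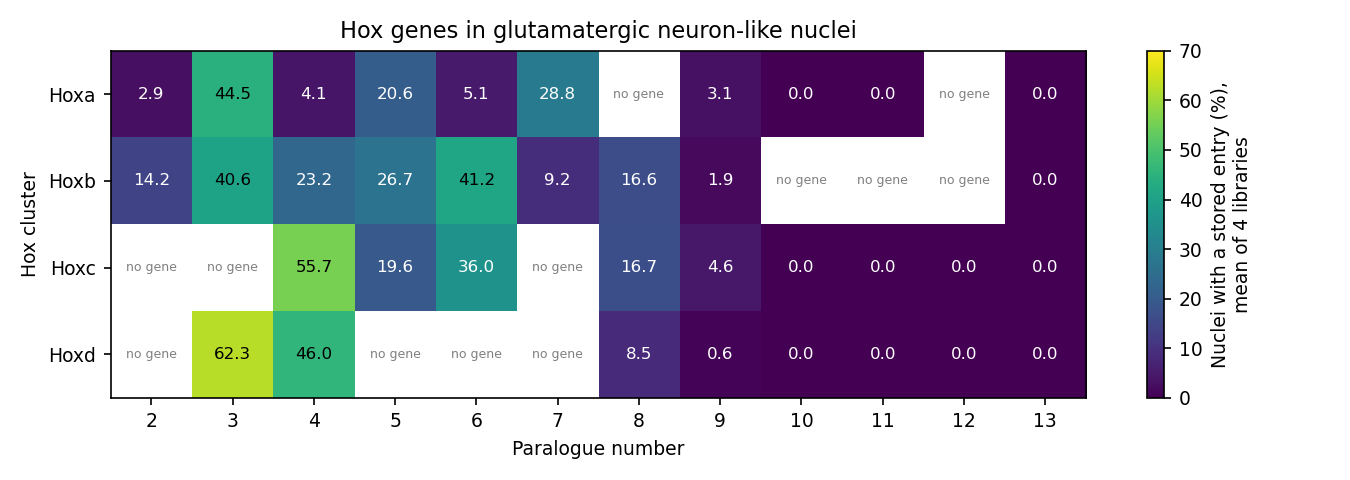
Share of glutamatergic neuron-like nuclei with a stored entry (percent, mean of the 4 libraries, colour scale and printed values) by paralogue number from 2 (horizontal axis) and Hox cluster (vertical axis); white fields hold no gene. Detection peaks in groups 3 and 4, stays high for single members up to group 8, falls to a few percent in group 9 and is at 0.0 in groups 10 to 13.

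The subtraction of free RNA treated the members unequally. Hoxd3 kept 247, 536, 215 and 138 counts and Hoxa3 kept 245, 265, 124 and 102. Hoxc8, by contrast, kept 0, 0, 0 and 1 counts although 60, 106, 66 and 76 nuclei stored it. Hoxa7 kept 0, 0, 0 and 37, and Hoxb5, Hoxb7, Hoxb8, Hoxd8 and Hoxc9 kept 0 counts in every library. Counts of the deposited matrices alone would thus leave out most of the caudal members, and 10 of the 39 members passed the filter of the count test.

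By Hox cluster, the B cluster held 34.9%, 34.0%, 31.4% and 29.7% of all Hox entries, the C cluster 24.5%, 23.2%, 24.6% and 27.1%, the D cluster 20.9%, 22.2%, 22.7% and 22.4%, and the A cluster 19.8%, 20.6%, 21.2% and 20.8%. The B share was lower, and each other share higher, in both injured than in both uninjured libraries. By group, members 1 to 3 took 30.4%, 32.6%, 32.7% and 28.6% of entries and members 4 to 5 took 39.4%, 37.3%, 33.7% and 35.6%. Members 6 to 8 took 28.5%, 27.8%, 32.2% and 33.5%, and group 9 took 1.66%, 2.25%, 1.36% and 2.25%. Groups 4 to 5 were lower and groups 6 to 8 higher in both injured libraries, while the other bands overlapped.

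The balance of the code was compared between the segment ranges by the share of Hox entries that belonged to groups 6 to 13, a measure that does not depend on the number of nuclei. This share was 30.2%, 30.2%, 33.6% and 35.8%. Both injured libraries lay above both uninjured libraries, by a mean of 4.53 percentage points (exact two-sided permutation p = 0.333, n = 2 against 2, the smallest that this design allows). Averaged over bins of equal depth the difference was also 4.53. Within single clusters of nuclei, an alternative chosen after the data were seen, both injured libraries were above both uninjured libraries in 5 of the 6 glutamatergic clusters with at least 20 nuclei in every library. In cluster 0, with 678 nuclei, the shares were 26.0%, 27.7%, 32.0% and 33.6%, and in cluster 1, with 483, they were 33.2%, 32.7%, 35.3% and 37.5%. Cluster 10 was the exception, at 28.2%, 30.7%, 23.3% and 34.8%. Clusters 11, 13 and 14 had fewer than 20 nuclei in some library and were not among the 6. The groups overlapped in cluster 11 (21.5%, 26.6%, 21.9% and 22.1%) and cluster 13 (36.1%, 39.2%, 35.2% and 40.6%). In cluster 14 both injured libraries were higher (34.8%, 27.8%, 36.4% and 37.2%).

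The mean paralogue number of all Hox entries was 4.65, 4.64, 4.69 and 4.87, a difference of 0.140 (exact two-sided permutation p = 0.333, n = 2 against 2). Most of it came from injured 2; without that library the difference was 0.0492. The share of nuclei with any entry of groups 8 to 13 was 38.3% (95% Clopper-Pearson interval 33.9 to 42.9), 37.8% (34.3 to 41.5), 31.2% (26.8 to 35.9) and 50% (44.4 to 55.6). Here the injured libraries lay on either side of the uninjured ones (exact two-sided permutation p = 1, n = 2 against 2), and without injured 2 the difference was -6.89 percentage points. In bins of equal depth the shares were 30.03%, 33.1%, 33.7% and 47.9%, with injured 1 close to uninjured 2.

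Because the libraries differed in depth, each member was also compared in 4 bins of 1000 stored entries per nucleus, from 3000 to 6999, that held at least 20 nuclei of every library. Depth-matched shares of Hoxb4 were 25.2%, 24.5%, 17.8% and 16.1%, or 24.9% ± 0.493 in uninjured and 17.0% ± 1.22 in injured libraries (SD, n = 2 each). Hoxb5 was at 27.8%, 26.8%, 18.8% and 24.9%. These were the 2 of 17 members at 10% or more whose injured libraries were both lower; among all 12380 genes stored as often, 23.8% were lower in this way. Hoxa7 was at 19.3%, 24.5%, 30.9% and 35.3% (21.9% ± 3.68 against 33.1% ± 3.15), and Hoxc8 at 8.69%, 12%, 15.4% and 22.2% (10.3% ± 2.34 against 18.8% ± 4.80). With Hoxb6 (38.6%, 38.2%, 39.2% and 41.5%), Hoxc5 (13.9%, 16.9%, 17.6% and 21.9%) and Hoxd8 (6.41%, 5.52%, 7.24% and 12.5%), 5 of the 17 were higher in both injured libraries, against 18.9% of all such genes. For Hoxb6, Hoxc5 and Hoxd8 the nearest libraries of the 2 groups differed by little. The 17 members had a median difference of 1.32 percentage points and all 12380 genes one of -0.103.

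**Figure D2:**
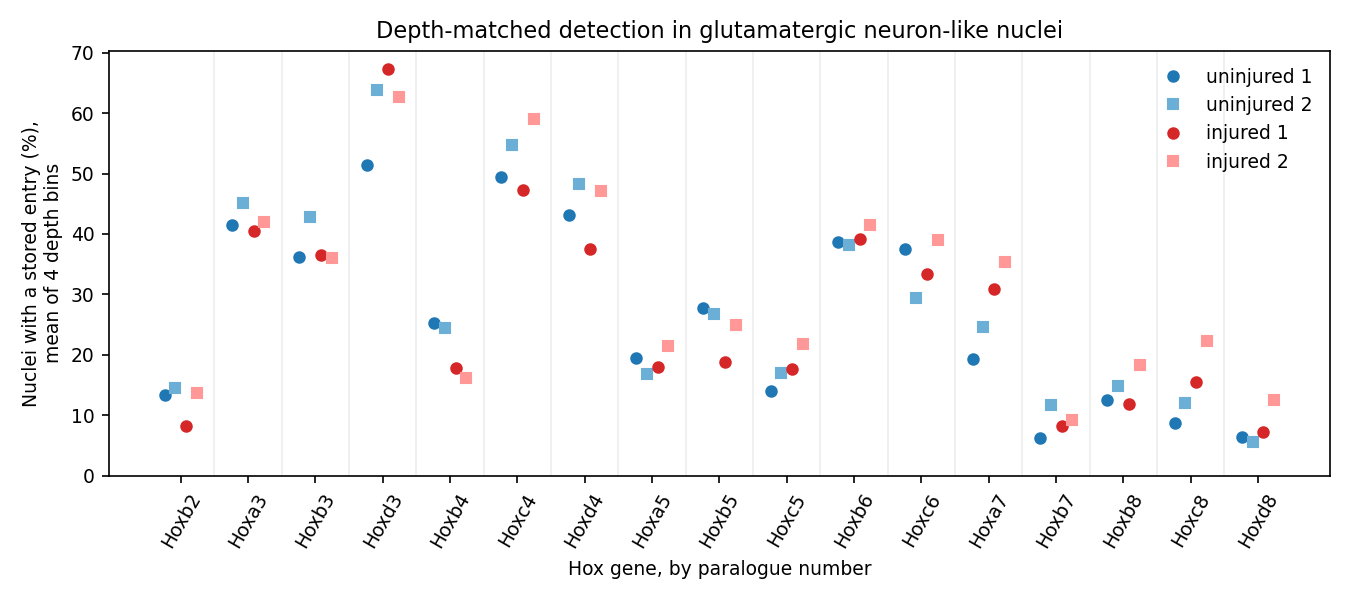
Depth-matched share of glutamatergic neuron-like nuclei with a stored entry (percent, vertical axis) for the 17 members stored in at least 10% of nuclei in some library, ordered by paralogue number; each point is 1 library, blue for uninjured and red for injured. The injured points lie below the uninjured points for Hoxb4 and Hoxb5 and above them for Hoxb6, Hoxc5, Hoxa7, Hoxc8 and Hoxd8.

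A quasi-likelihood test of edgeR on the number of nuclei that stored each gene was fitted to all genes. It tested 15917 genes, of which 809 (5.08%) were called lower and 681 (4.28%) higher in injured libraries at an adjusted p below 0.05. Of the 39 members, 23 passed its filter, 11 with a negative and 12 with a positive log2 difference (median 0.03, against -0.01 over all genes). Hoxc8 was the single member called. It was stored in 60 of 475, 106 of 716, 66 of 420 and 76 of 320 nuclei, and its log2 difference was 0.75 (SE 0.23, edgeR adjusted p = 0.0474). The call was lost under several settings: without uninjured 1 the log2 difference was 0.62 (edgeR adjusted p = 0.179), without injured 2 it was 0.51 (0.322), over all nuclei it was 1.15 (0.204), and DESeq2 gave no adjusted p for it.

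Hoxb4 and Hoxa7 did not pass the threshold. Hoxb4 was stored in 155, 195, 71 and 51 nuclei, a log2 difference of -0.58 (SE 0.19, edgeR adjusted p = 0.0624). Hoxa7 was stored in 118, 197, 117 and 112 nuclei, a log2 difference of 0.51 (SE 0.17, edgeR adjusted p = 0.0684). It passed when the filter on low values was dropped (adjusted p = 0.0367) or without injured 1 (0.0380). Hoxd3 had an unadjusted p of 0.0412 (log2 difference 0.18, SE 0.08, edgeR adjusted p = 0.204), and passed only without uninjured 2 (0.33, adjusted p = 0.0368). The remaining 19 members had unadjusted p-values above 0.05. DESeq2 gave an adjusted p for none of the 30 members it fitted by stored entries.

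Within each of the largest clusters Hoxb4 was lower in both injured than in both uninjured libraries. It was stored in 27.7%, 29.5%, 16.9% and 9.64% of cluster 0 nuclei and in 42.1%, 31.7%, 23.3% and 15.6% of cluster 1 nuclei. Hoxa7 was stored in 18.1%, 22.5%, 23.4% and 26.5% of cluster 0 and in 43.2%, 37.5%, 41.7% and 55.8% of cluster 1. Hoxc8 was stored in 10.2%, 8%, 9.09% and 14.5% of cluster 0 and in 21.1%, 25.5%, 28.2% and 38.96% of cluster 1. The groups did not overlap for Hoxb4 in either cluster, for Hoxa7 in cluster 0 and for Hoxc8 in cluster 1, and overlapped in the other cases. These shares within clusters are not matched for depth. Median stored entries per nucleus were 5765, 5406, 4144.5 and 5244 in cluster 0 and 7307, 6801, 5654 and 6191 in cluster 1.

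The same test on summed counts called none of 10980 genes (0.00% lower and 0.00% higher), with 209 genes at an unadjusted p below 0.05; DESeq2 called 3 lower and 13 higher. Of the 10 members tested, 0 were called and 0 had an unadjusted p below 0.05. DESeq2 called 0 of 20, with no adjusted p for 6 of these. The 10 members tested by edgeR had a median log2 difference of 0.03 against 0.05 over all genes. Hoxc4, for example, kept 49, 332, 50 and 158 counts, which is 7.45, 40.4, 13.7 and 59.8 CPM. Replicate 2 was higher than replicate 1 in both groups, so the spread within groups was larger than that between them.

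Hox genes also differed among clusters of nuclei, which had been formed without them. Cluster 16, an unnamed neuron cluster of 46 nuclei led by Crygn and Met, stood out by the absence of caudal members. The V2a-lineage genes Lhx3, Sox14, Sox21, Shox2 and Lhx4 were each stored in at least 5% of its nuclei, and Slc17a6 was stored in 91.3% but had 0 counts left, which kept it from a glutamatergic name. Only 1 of its 46 nuclei (2.17%, Clopper-Pearson interval 0.0550 to 11.5) stored any member of groups 6 to 13, a single entry of Hoxb8. In the other neuron clusters 40.8% to 90.2% of nuclei did over all libraries, but single libraries differed. In uninjured 1, inhibitory-like cluster 3 (40 nuclei) was also low in caudal members. It stored Hoxb6, Hoxc6 and Hoxb8 in 5% of nuclei each, and Hoxa7 and Hoxc8 in 0%. In uninjured 2 (260 nuclei) cluster 3 stored Hoxb6 in 46.2%, Hoxc6 in 13.8% and Hoxb8 in 23.1%. Members of groups 3 and 4 were present in cluster 16, with Hoxc4 in 54.3% of its nuclei, Hoxb3 in 45.7%, Hoxd3 in 34.8% and Hoxa3 in 17.4%. Hoxc4 and Hoxb3 lay within their ranges in glutamatergic neuron-like nuclei of the 4 libraries (44.3% to 60.2% and 35.2% to 46.5%). Hoxd3 and Hoxa3 lay below theirs (58.8% to 67.0% and 36.0% to 50%).

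**Figure D3:**
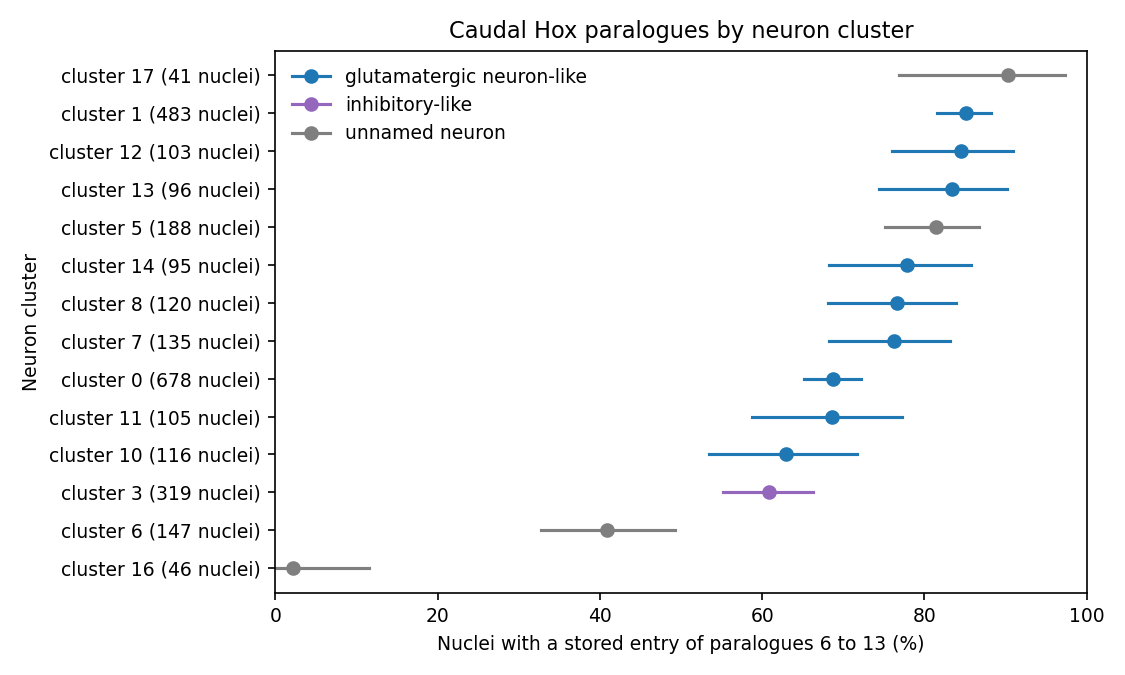
Share of nuclei with a stored entry of any Hox member of groups 6 to 13 (percent, horizontal axis) in each neuron cluster (vertical axis), all 4 libraries together; points are shares and lines exact 95% intervals, which cover counting error only. Cluster 16 lies at 2.17% and all other clusters at 40.8% or more.

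The difference was as large at like depth. In uninjured 1, 0 of its 18 nuclei stored a member of groups 6 to 13, against 66.4% of glutamatergic neuron-like nuclei weighted to the same depth. In uninjured 2 it was 1 of 24 (4.17%) against 68.2%, and in injured 1 it was 0 of 4 against 64.6%. At least 1 member of groups 1 to 5 was stored in 100%, 91.7% and 100% of its nuclei in these libraries. The like-depth shares were 92.2%, 96.6% and 92.1%. Shares this near to 100% cannot show whether each nucleus stored fewer of these members. Cluster 16 held 98 Hox entries in 46 nuclei, 1 of them of groups 6 to 13 (median 4325 stored entries per nucleus). Cluster 14 (median 4300) held 522 in 95 nuclei, 173 of these groups. Cluster 10 (median 4205.5) held 380 in 116 nuclei, 115 of these groups. Cluster 16 held 3.33% (1.98 to 5.21), 1.93% (1.24 to 2.86), 0.787% (0.215 to 2.00) and 0% of the neuron nuclei of each library (0 of 380, which allows up to 0.789%). It was thus found mainly in the libraries that included C1 and C2, and the difference in segments cannot be told apart from the injury.

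A separate rule, chosen after the data were seen, took nuclei with at least 5 stored Hox genes and none of groups 6 to 13. It was not a search for more nuclei like those of cluster 16. These stored a mean of 2.13 Hox genes and had no glutamatergic name. Among glutamatergic neuron-like nuclei with at least 5 stored Hox genes, 18 of 298 (6.04%), 34 of 431 (7.89%), 4 of 178 (2.25%) and 10 of 193 (5.18%) met the rule. Both injured libraries were lower, but the interval of injured 2 (2.51 to 9.32) covers both uninjured values.

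Cluster 11, a glutamatergic neuron-like cluster, lacked single caudal members rather than all of them. Hoxb6 was stored in 42.9% of its nuclei, but Hoxc6 in 7.62%, Hoxa7 in 6.67% and Hoxc8 in 1.90%. Its nuclei with any member of groups 6 to 13 were 70%, 74.3%, 55.6% and 68.2%, against 78.2%, 73.6%, 75.3% and 85.3% of glutamatergic neuron-like nuclei at like depth. Among its genes was Lhx1, a marker of other interneuron classes. Clusters 12 and 13 lay at the other end, with Hoxc6 in 55.3% and 56.2% of nuclei.

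Unnamed neuron clusters 5 and 17 used the B cluster most. In cluster 5 (188 nuclei, 181 of them from uninjured 2, led by Nmu, Tac2 and Tlx3) 63.2% of Hox entries were of the B cluster and 6.22% of the C cluster. Cluster 17 (41 nuclei, all from uninjured 2) had 50.5% and 10.6%, while the glutamatergic neuron-like clusters had 21.6% to 44.7% and 17.8% to 33.5%. Hoxb6 was stored in 63.8% of cluster 5 and 70.7% of cluster 17, but Hoxc4 in 9.04% and 22.0%. Lin28b was the only V2a-lineage gene stored in at least 5% of either cluster. The inhibitory-like cluster 3, led by Pax8, Pax2 and Gad1, was intermediate over all libraries, with 50.2% B and 13.6% C entries. Hoxb3 was stored in 55.2% and Hoxc4 in 33.5% of its nuclei. Of its 319 nuclei, 260 were from uninjured 2 (51.6% B and 12.6% C entries). In uninjured 1 (40 nuclei) it had 42.2% and 24.4%, within the range of the glutamatergic neuron-like clusters. Within uninjured 2 alone, 63.5% of the Hox entries of cluster 5 were of the B cluster and 6.20% of the C cluster, against 23.9% to 47.9% and 16.6% to 32.4% in its glutamatergic neuron-like clusters. The other libraries held at most 4 nuclei of cluster 5 each and none of cluster 17, so the pattern has no replicate library. Cluster 14 had Hoxa9 among its leading genes, stored in 16.8% of its nuclei (15.6%, 18.8%, 22.2% and 7.69% by library). Of all glutamatergic neuron-like nuclei 2.14% to 4.75% stored it. Hoxa9 was not particular to cluster 14, since 22.0% of cluster 17 (9 of 41 nuclei) and 10% of glutamatergic neuron-like cluster 8 (12 of 120) stored it.

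**Figure D4:**
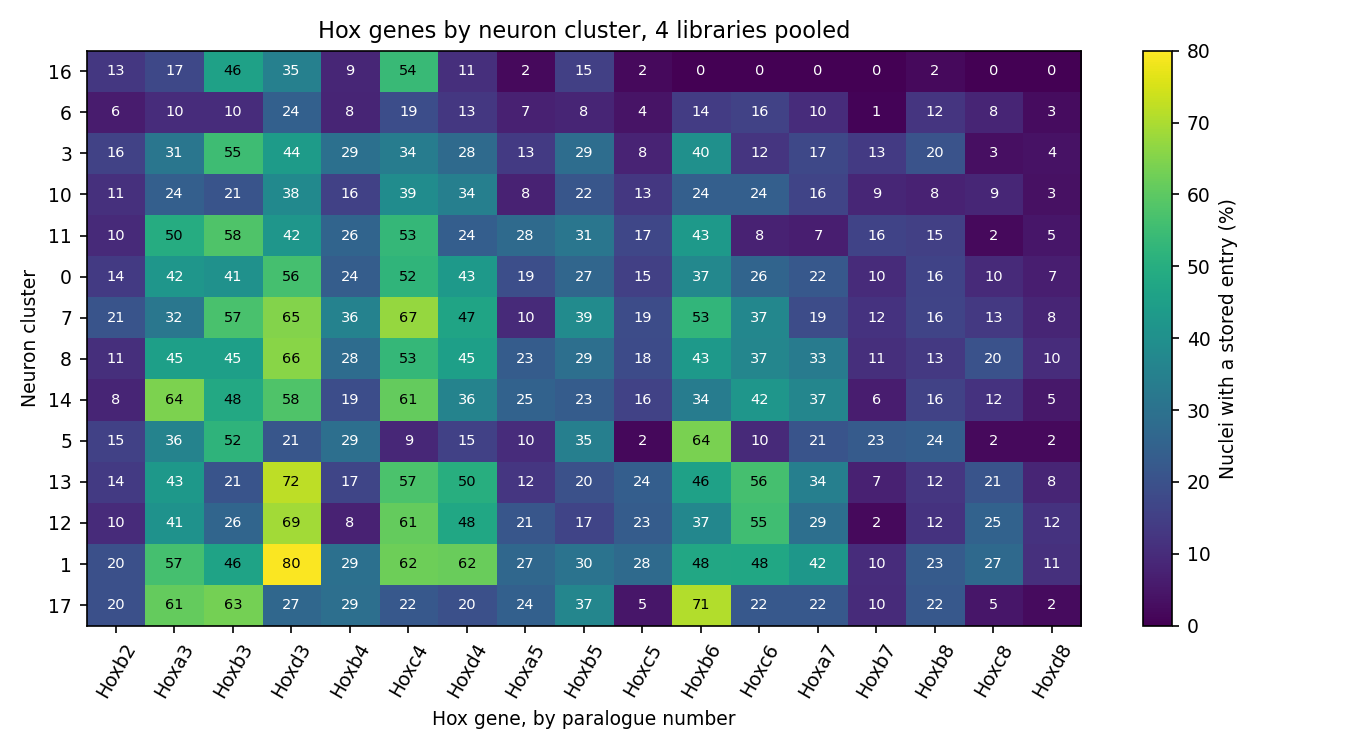
Share of nuclei with a stored entry (percent, colour and printed values) for 17 members (horizontal axis, by paralogue number) in each neuron cluster (vertical axis, ordered by the share of nuclei with groups 6 to 13), 4 libraries together. Cluster 16 is near 0 from Hoxb6 on, and cluster 11 is low for Hoxc6, Hoxa7 and Hoxc8 but not for Hoxb6. Clusters 5 and 17 are high for B-cluster members and low for Hoxc4.

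Within single nuclei, Hoxc6, Hoxc8 and Hoxa7 were stored together. For each ordered pair of the 17 common members, nuclei with the first gene were compared with nuclei without it at equal depth. Where Hoxc8 was stored, Hoxc6 was stored in 86.8%, 79.6%, 68.4% and 63.9% of nuclei, and where it was not, in 35.5%, 27.5%, 29.3% and 33.1%. That was the largest difference of all pairs, 43.3 percentage points on average and 30.8 to 52.0 by library. Next came Hoxa7, whose cluster lies on another chromosome: Hoxc6 was stored in 73.6%, 55.6%, 46.8% and 64.3% of nuclei with Hoxa7 and in 31.2%, 26.7%, 29.4% and 26.5% without it. The same pair taken the other way gave 26.7 percentage points for Hoxa7 in nuclei with Hoxc6. Hoxa7 in nuclei with Hoxc8 (25.02), Hoxc8 in nuclei with Hoxc6 (24.9) and Hoxc6 in nuclei with Hoxc5 (24.2) followed. Each was positive in all 4 libraries. No pair of these 3 genes with Hoxb6, Hoxb7, Hoxb8 or Hoxd8 was positive in all 4 libraries. Mean differences of such pairs had both signs. Hoxb6 differed by 6.66 points in nuclei with Hoxc6, and Hoxc6 by 5.92 with Hoxb6 and by 4.85 with Hoxd8. Each of these was positive in 3 of 4 libraries. Hoxc6 differed by -8.08 points in nuclei with Hoxb7, the lowest of all pairs across clusters, and by 0.014 with Hoxb8. Hoxc8 differed by -3.32 with Hoxb8 and by -0.16 with Hoxd8. In all of these pairs the signs differed between libraries.

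The same pairs stood together within single clusters of nuclei. In cluster 0 alone the difference was 38.0 percentage points for Hoxc6 with Hoxc8 and 39.1 for Hoxc6 with Hoxa7, and in cluster 1 it was 45.7 and 34.9, each positive in all 4 libraries. Those within-cluster values, chosen after the data were seen, are not matched for depth.

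Some members of the B cluster showed the opposite. With Hoxb4, Hoxc6 was stored in 37.7%, 29.7%, 37.1% and 37.0% of nuclei, and without it in 44.1%, 38.9%, 39.05% and 41.0%, lower in all 4 libraries by 5.40 percentage points on average. With Hoxb5 the mean difference was -5.91, also negative in all 4. Within cluster 1 both signs turned, to 6.70 with Hoxb4 and 4.15 with Hoxb5, each positive in 3 of 4 libraries. In cluster 0 the means were -8.49 and -5.42, each negative in 3 of 4 libraries and positive in injured 1 (0.42 and 3.95). Of the 66 ordered pairs within a Hox cluster, 26 were positive in all 4 libraries (median 4.89 percentage points), and of the 206 pairs across clusters 42 were (median 1.08). The extent to which reads shared between overlapping genes add to the pairs within a cluster was not tested.

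**Figure D5:**
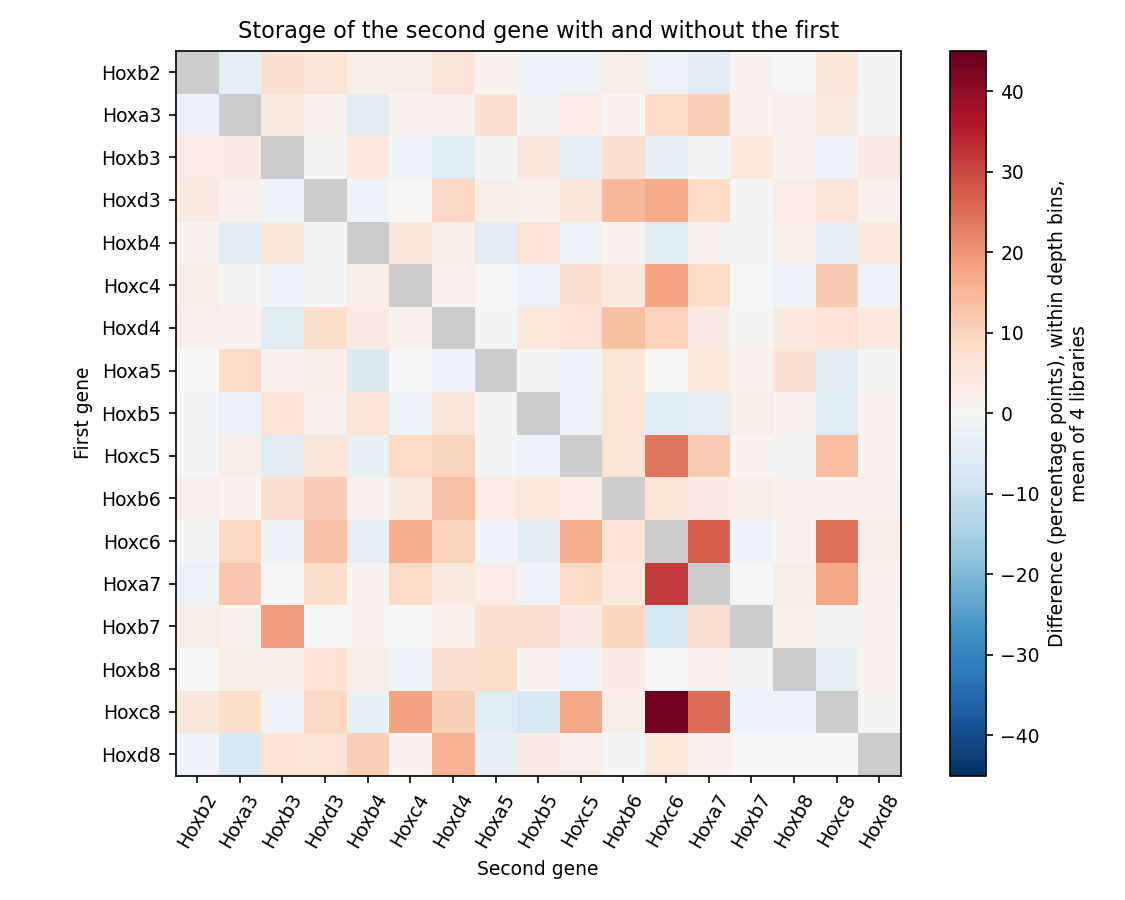
Difference in the share of nuclei storing the second gene (horizontal axis) between nuclei with and without the first gene (vertical axis), in percentage points, at equal depth and averaged over 4 libraries; red is positive, blue negative and grey the gene itself. The block of Hoxc5, Hoxc6, Hoxa7 and Hoxc8 holds the strongest red, with Hoxc8 and Hoxc6 at 43.3.

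Genes that work with or on the Hox genes were followed by the same tests. Of 9 Hox cofactors, edgeR called 3 higher in injured libraries by stored entries, against 4.28% of all genes. On counts none was called (7 tested, 0 at an unadjusted p below 0.05, 0 by DESeq2). DESeq2 called 1 by stored entries, but 6 of the 9 fitted had no adjusted p there and 1 of 9 had none on counts. Among those called by edgeR on stored entries were Pbx3 and Meis2, and Meis2 was named after its values were seen. Pbx3 was stored in 77.03%, 77.4%, 89.2% and 82.9% of nuclei at matched depth (log2 difference 0.29, edgeR adjusted p = 0.0115). Meis2 was at 75.3%, 65.1%, 77.7% and 67.7% (log2 difference 0.25, edgeR adjusted p = 0.0356). Groups did not overlap for Pbx3 and overlapped for Meis2. The cofactors Meis1 and Pknox1 were at 78.4%, 73.7%, 80.3% and 73.3%, and at 45.3%, 35.7%, 41.0% and 34.2%.

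Of 17 Polycomb genes, which keep Hox genes silent, edgeR called 0 by stored entries (17 tested) and 0 on counts (13 tested). In both, 0 were at an unadjusted p below 0.05. DESeq2 called 0 in both, but it gave no adjusted p for 14 of 17 by stored entries and 3 of 16 on counts. The median edgeR log2 difference of the Polycomb genes was 0.03 by stored entries and 0.88 on counts. Over all genes the median was -0.01 and 0.05. The count values rest on genes that were emptied in some libraries: Ezh2, the methyltransferase of the complex, kept 154, 0, 116 and 77 counts, and Ezh1 kept 31, 76, 77 and 61. By stored entries Ezh2 was at 41.0%, 37.4%, 47.3% and 42.1% and Ezh1 at 49.4%, 43.1%, 43.1% and 40.5% at matched depth. Among 6 genes of Hox activation, Kmt2a, a histone methyltransferase that maintains Hox expression, was called higher by stored entries (97.1%, 95.9%, 97.4% and 97.4%, log2 difference 0.22, edgeR adjusted p = 0.0270), although its share differed little and it kept 765, 429, 205 and 788 counts. Wdr5, a subunit of the same complexes, kept 25, 33, 54 and 44 counts (unadjusted p = 0.0289 on counts, not called).

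Of 12 upstream patterning genes, edgeR could test 6 by stored entries and 4 on counts. In both, 0 were called and 0 were at an unadjusted p below 0.05. DESeq2 called 0, but it gave no adjusted p for any of the 10 fitted by stored entries and for 3 of 7 on counts. The retinoic acid receptor Rarb was stored in 44.0%, 51.6%, 53.4% and 44.5% of nuclei at matched depth and Rarg in 14.8%, 13.7%, 14.5% and 18.8%. The Cdx genes, which switch on Hox genes in the embryo, were stored in at most 0.419% of nuclei of any library. Of the noncoding genes of the Hox clusters 6 were tested by stored entries, and all had a negative log2 difference (median -0.35). Of these, 2 were at an unadjusted p below 0.05 and edgeR called 0. DESeq2 gave none of the 6 an adjusted p. Over all genes 47.5% had a positive difference, with a median of -0.01. On counts 5 noncoding genes were tested, of which 3 were positive and 2 negative (median 0.04), and 0 were called. Hoxb5os, antisense to Hoxb5, was at 11.4%, 17.3%, 6.90% and 9.17% at matched depth (edgeR adjusted p = 0.0573), and the groups did not overlap. Evx1 and Evx2, the other homeobox genes of the clusters, were too rare to test.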

How the data were processed

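The authors deposited 1 matrix of whole-number counts of unique molecular identifiers per gene and nucleus for each library, and the file names mention SoupX, which subtracts counts attributed to free RNA. Cell Ranger, Seurat 5.0.0 and mm10 were used, per the submitters' processing notes; for other versions, for settings and for strand, the sources used here give nothing. Of stored entries, between 53.0% and 60.1% were 0, and reading them as emptied detections rests on the files alone.

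The libraries held 569, 2399, 601 and 432 nuclei and 7128996, 13496025, 3982267 and 2901680 counts (uninjured 1, uninjured 2, injured 1, injured 2). Nuclei with under 500 genes with a count (6, 324, 38 and 39) or 5% mitochondrial counts (0) were removed, as were Scrublet doublets (3, 4, 10 and 4; scanpy 1.11.5). The rest were integrated in Seurat 5.3.0 (2000 variable genes less 4 Hox genes, 30 dimensions, resolution 0.5), giving 20 clusters named by markers, so names are rebuilt and not the authors'. Counts and numbers of nuclei with a stored entry were summed per library over glutamatergic neuron-like nuclei and tested with edgeR 4.0.16 in R 4.3.3 (quasi-likelihood, TMM, filterByExpr, Benjamini-Hochberg over all genes, threshold 0.05), tested beforehand on simulated data; DESeq2 1.42.0 was an alternative. Single summaries had exact permutation tests over libraries, which with 2 against 2 allow no p below 0.333. Depth-matched shares are means over bins; co-storage differences are weighted by the nuclei with the first gene over bins with at least 5 nuclei of each kind. Intervals are 95% Clopper-Pearson; intervals and limits of 0 (3 nuclei of the total) cover counting error only. Gene positions and exon overlaps are from GENCODE vM21.

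The members and lists were chosen with earlier results of these data known. Full values are given for members stored in at least 10% of nuclei in a library and for groups 8 and 9, log2 differences for members at an unadjusted p below 0.05, and for each other list up to 4 members by smallest p on counts. Values of some single genes are not reported here.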

Additional observations from a re-analysis of the deposited data

How the results depend on the processing

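The share of Hox entries in groups 6 to 13 was higher in injured libraries under all alternatives run, by 3.31 to 5.20 percentage points, and by 3.44 to 5.61 when a library was left out. The mean paralogue number differed by 0.0492 to 0.230 when a library was left out, and the share of nuclei with groups 8 to 13 by -6.89 to 11.9, lower without injured 2 and higher in the other cases. Bins of 500 stored entries changed the depth-matched difference of Hoxb4 from -7.88 to -6.11 and no direction of a non-overlapping member.

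Counts of called genes over all genes were less stable. On counts, DESeq2 called 3 lower and 13 higher and dropping the filter gave 2 higher, where edgeR called 0; leaving out a library gave 0 to 2 lower and 0 to 235 higher, the highest without uninjured 1. On stored entries, DESeq2 called 0 lower and 371 higher, all nuclei past the filters gave 0 and 0, and all neuron clusters gave 360 and 83. Leaving out a library gave 397 to 759 lower and 319 to 763 higher, where the lone library is assumed to vary like the other group. The causes were not tested. For the members, the sign turned in 17 of the 100 refits on counts and in 27 of 206 on stored entries, none of the latter for Hoxc8, Hoxb4, Hoxa7 or Hoxd3. Same-numbered replicates did not deviate together (correlation -0.0610 on counts and -0.0291 on stored entries), so the replicate number was not used as a pairing; with a replicate block, 1011 genes were called lower and 673 higher on stored entries, 0 on counts, and Hoxb4 (-0.59, edgeR adjusted p = 0.0281) and Hoxa7 (0.52, 0.0282) passed beside Hoxc8 (0.77, 0.0103). Depth limits what can be said of members stored in under 10% of nuclei and of all caudal members on counts.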
